A study of Mus musculus with 6 samples.

Results

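The 2065 peaks described here are the sites of open chromatin that the authors' deposited table placed in a 3′ untranslated region (3′ UTR), out of 92864 annotated peaks in all (2.22%). They were chosen by that annotation alone, and no measured value entered the choice. The data come from ATAC-seq, in which the Tn5 transposase inserts sequencing adapters into accessible DNA, so that the reads over a site reflect how open it is. The comparison is between microglia (MG), macrophages that live in the brain from early development, and bone marrow derived macrophages (BMDM), which enter from the blood. Both were sorted from brain tumours grown from SB28 glioma cells implanted into the brain of mice, all with the genotype given as WT and with no other treatment in the labels. Both gates took F4/80+ CD11b+ cells that were LY6G- and LY6Clo/-. MG were the CD45lo cells with CD49dlo/- staining, and BMDM the CD45+ cells that were CD49dhigh. Each group has 3 libraries. Nothing in the labels ties a library to an animal of its own, and a p-value here reflects the spread from library to library, which may be technical. The study's stated interest is how metabolism bears on gene expression and function in these macrophages.

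A 3′ UTR is the stretch of a messenger RNA after the stop codon, where microRNAs and RNA-binding proteins set how stable the message is and how often it is translated. The DNA that encodes it can also hold enhancers, the ends of neighbouring genes or hidden start sites, and ATAC-seq reads only the openness of that DNA. A peak in a 3′ UTR therefore says nothing of the RNA's level or length.

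Depth was uneven, with 4910448 reads over peaks in BMDM 3 and 23601865 in MG 2 at the extremes. Peaks in 3′ UTRs held 1.3% to 1.4% of the reads in the MG libraries and 1.3% to 1.5% in the BMDM libraries. The median 3′ UTR peak had 41 to 85 reads in an MG library and 19 to 59 in a BMDM library. The gates were checked on promoter peaks of marker genes, summed over each list in normalized counts. The microglial list (39 of 40 genes with a promoter peak) summed to 18008 to 36018 in MG and 12352 to 22507 in BMDM, and the monocyte and macrophage list (37 of 45 genes) to 11027 to 13106 and 9587 to 17865, so the ranges overlapped for both lists. The neural and glial list (45 of 56 genes) summed to 12057 to 18993 in MG and 5761 to 6384 in BMDM. The neutrophil list (13 of 25 genes) summed to 1413 to 1713 in MG and 1804 to 2466 in BMDM, and the list for T, NK and B cells (31 of 39 genes) to 4453 to 4767 and 4511 to 6621. No gene with a promoter peak was at 0 in any library. MG and BMDM are used below as the names of the gates. Fewer cells of a type and less accessible DNA per cell cannot be told apart in such bulk libraries.

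The peaks lay near the ends of genes, but often not in the gene whose name the table gives them. The table names the gene with the nearest start site. Set against the spans of protein-coding RefSeq genes on the same assembly (GRCm38.p6), 1852 of the 2065 peaks lay inside 1 gene, 58 in overlapping genes and 155 in none. The named gene spanned the peak in 1245 cases (60.3%). Another gene was the only one spanning it in 658 cases, 35.5% of the peaks inside 1 gene, and 491 peaks lay upstream of the start of the gene they were named after. Of 1438 peaks whose spanning gene has a strand in the reference, 231 held the gene's 3′ end and 1110 (77.2%) lay within 5000 bp of it, with a median distance of 1338 bp. Peaks up to 3 kb from a start site have promoter classes of their own in the annotation, so few members could lie near one. Within 1000 bp of a RefSeq start lay 26 of 2011 peaks. None of the 1005 annotated microRNA hairpins overlapped a 3′ UTR peak. The median width was 579 bp (193 to 3385 bp), against 593 bp over all peaks. Below, a peak is named after the gene that spans it, with the table's name where the names differ.

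After a filter on low values (a mean normalized count of at least 10), 1985 of the 2065 peaks were tested, and 80 were not. The limma test over all 87944 peaks that passed, with Benjamini-Hochberg adjusted p under 0.05 as the threshold, called 95 of the 1985 higher in BMDM (4.79%), with another 26 (1.31%) in the opposite direction. The shares over all peaks tested were 5.33% and 1.54%, so both shares among 3′ UTR peaks were near the background. Differences are given as BMDM minus MG on the scale log2(normalized count + 1), relative to the median peak, whose own difference was -0.14. The standard errors and adjusted p-values belong to the differences before that shift. The median 3′ UTR peak differed by -0.01 from the median peak, with quartiles of -0.46 and 0.53. Peaks in other exons had 5.17% and 1.46% called (4871 peaks) and peaks in later introns 6.80% and 0.87% (17869 peaks), and these shares were not tested against each other. The groups did not overlap in 295 peaks with BMDM above MG (14.9%, against 17.0% of all peaks) and in 251 with MG above BMDM (12.6%, against 12.9%). All 121 called peaks were among these. By the adjusted p of the authors' deposited table, 158 peaks in 3′ UTRs passed 0.05 with BMDM above MG and 118 with MG above BMDM, and the shares over all its peaks were 9.06% and 5.38%. The 121 peaks called here were all among those 276.

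These counts rested on single libraries and on the test. With voom on the recovered reads and all 6 libraries, 0 peaks were called in either direction, so that none of the 121 calls was kept, with 257 peaks higher in BMDM and 178 higher in MG at an unadjusted p under 0.05 and a lowest adjusted p of 0.0505. Scaling by library totals kept 102 of the 121 calls, cyclic loess 111 and the deposited variance-stabilized values 111. Leaving out MG 3, BMDM 1 or BMDM 2 left 0 calls in either direction by limma, with 194, 199 and 197 peaks higher in BMDM and 113, 125 and 132 higher in MG at an unadjusted p under 0.05. All calls named below were therefore lost without any 1 of these 3 libraries, and their direction was kept without each library in turn. The counts came to 43 and 6 without BMDM 3, to 152 and 71 without MG 2, and to 204 and 250 without MG 1. The calls higher in BMDM were of typical strength, with a median mean of 42.5 normalized counts against 45.5 over all 3′ UTR peaks tested, and those higher in MG had a median of 126 counts. The strongest called in each direction had means of 299 and 277 counts.

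**Figure D1:**
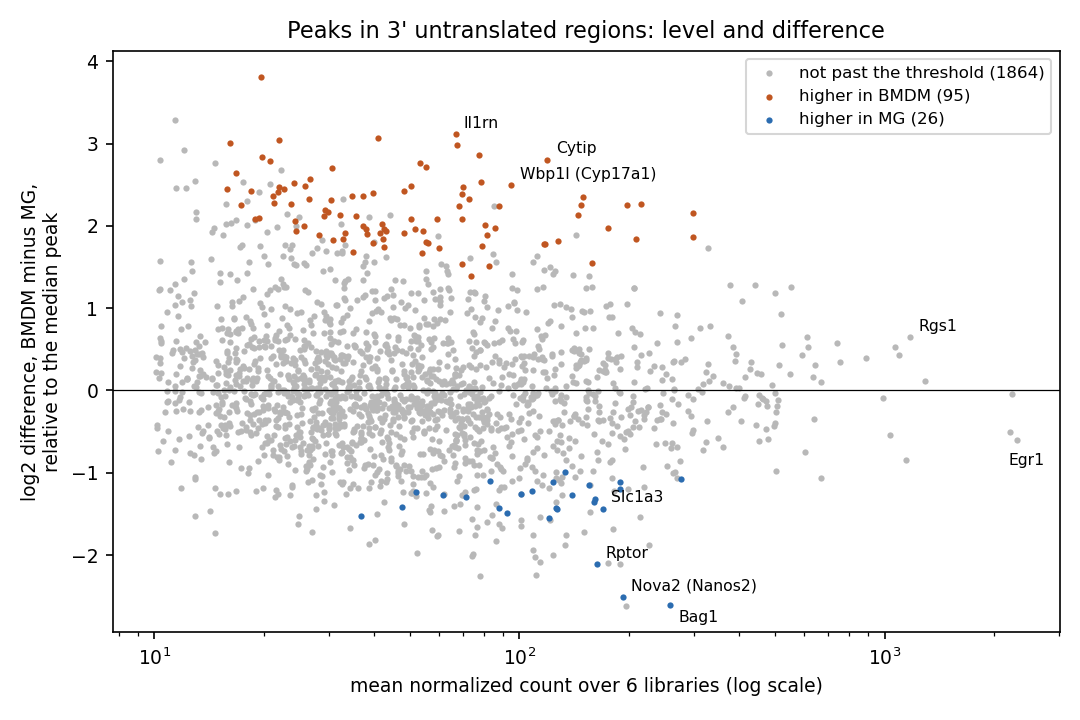
Each point is 1 of the 1985 tested 3′ UTR peaks, with its mean normalized count on a log axis and its log2 difference (BMDM minus MG) relative to the median peak. The 95 orange points are higher in BMDM, the 26 blue points higher in MG, and the strongest peaks, such as Egr1 and Rgs1, lie among the grey points that did not pass the threshold.

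Among genes of cytokine and innate immune signalling, the 3′ UTR peak of Il1rn, which encodes the secreted antagonist of the interleukin-1 receptor, had the largest increase among called peaks above the median level. It holds the 3′ end of the gene (chr2:24350856-24351542, mm10). Its normalized counts were 10.3, 16.4 and 14.6 in MG 1 to 3 and 133, 156 and 70.7 in BMDM 1 to 3. The lowest BMDM library was thus far above the highest MG library, and the difference was 3.12 ± 0.40 (SE; limma adjusted p = 0.026). A peak at the end of Il6ra, the interleukin-6 receptor, carries the table's name She. It had 11.9, 8.20 and 10.7 counts in MG and 33.7, 58.9 and 30.8 in BMDM, a difference of 1.99 ± 0.45 (limma adjusted p = 0.041). Another peak in Il6ra, 1641 bp from the gene's end and also without overlap between the groups, had 19.8, 23.0 and 16.5 counts in MG and 35.7, 51.8 and 56.2 in BMDM, which did not pass the threshold (adjusted p = 0.076). A peak 2123 bp from the end of Traf6, the ubiquitin ligase downstream of Toll-like and interleukin-1 receptors, rose by 2.27 ± 0.51 (limma adjusted p = 0.039).

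Clec4n and Ptafr are genes of surface receptors. The peak in Clec4n, which encodes the fungal pattern receptor Dectin-2, had 16.7, 37.2 and 19.4 counts in MG and 123, 185 and 56.2 in BMDM, with a difference of 2.33 ± 0.49 (limma adjusted p = 0.034). In Ptafr, the receptor for platelet-activating factor, the counts were 19.8, 9.84 and 12.6 in MG and 151, 35.0 and 74.3 in BMDM. The BMDM libraries thus spread over a wide range, and the lowest of them still lay above MG (2.49 ± 0.54, limma adjusted p = 0.035). A pair of called peaks that no single gene spans are named after the receptor genes Cd300a and P2rx4 and may belong to other genes. The one named after Cd300a, an inhibitory receptor of myeloid cells, had 110, 90.7 and 72.9 counts in MG and 258, 523 and 194 in BMDM. It was among the stronger peaks called (1.85 ± 0.40, limma adjusted p = 0.036). Of the 4 peaks named after the ATP-gated channel P2rx4, 1 was called, which had 34.9, 18.6 and 25.3 counts in MG and 57.5, 120 and 81.5 in BMDM (1.8 ± 0.40, limma adjusted p = 0.039).

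Adhesion and the cytoskeleton were represented by Cytip, Cd44 and Itgb3. Cytip binds cytohesins, which control leukocyte adhesion. Its peak, 419 bp from the gene's end, had 23.0, 34.4 and 35.0 counts in MG and 286, 205 and 132 in BMDM, so that every BMDM library was above every MG library (2.80 ± 0.37, limma adjusted p = 0.026). The peak in Cd44 (chr2:102812800-102813254), the hyaluronan receptor of activated leukocytes, is named in the table after the glial glutamate transporter Slc1a2. The start of Slc1a2 lies 51627 bp away. The Cd44 peak had 25.4, 35.0 and 24.3 counts in MG and 125, 118 and 90.6 in BMDM, a difference of 2.08 ± 0.33 (limma adjusted p = 0.026). Read by its table name, this peak would count as a glial gene higher in BMDM. The peak in Itgb3, the integrin beta chain of the vitronectin receptor, is named after Efcab3 and had 3.97, 10.9 and 6.80 counts in MG and 25.8, 46.6 and 50.7 in BMDM. It rose by 2.52 ± 0.54 (limma adjusted p = 0.035).

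Other peaks higher in BMDM lay in genes better known from other cells. The peak in Mmp8, the neutrophil collagenase, is named after Mmp27 and had 37.3, 27.9 and 35.0 counts in MG and 169, 117 and 97.8 in BMDM (2.01 ± 0.33, limma adjusted p = 0.026). In Erg, a transcription factor of endothelial and blood stem cells, the counts were 17.5, 18.6 and 14.6 in MG and 65.5, 88.7 and 47.1 in BMDM (limma adjusted p = 0.028). In Flt1, a receptor for vascular endothelial growth factor that the table names Pan3, they were 10.3, 22.4 and 19.4 in MG and 65.5, 59.6 and 52.5 in BMDM (limma adjusted p = 0.035). The neutrophil marker sums given above were also higher in every BMDM library than in every MG library, those for T, NK and B cells overlapped, and the endothelial and mural list (20 of 25 genes, none at 0) summed to 2558 to 3098 in MG and 1870 to 2421 in BMDM. The part of such cells in these peaks was not tested. Klri2 and Klre1, a pair of lectin-like receptor genes of the natural killer cell cluster, had peaks higher in BMDM by 3.01 and 2.45, from low MG levels of 1.94 to 5.47 and 3.97 to 8.75 counts. Other peaks of such genes lay in the opposite direction without passing the threshold. Kdr, on the endothelial list, was at -0.37, with overlapping groups (limma adjusted p = 0.37). Tbx21, on the list for T, NK and B cells, was at -0.86. It had 72.2, 133 and 92.3 counts in MG and 37.7, 42.7 and 67.0 in BMDM, without overlap (limma adjusted p = 0.12).

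The remaining large increases did not share a pathway by name. Gpr89, which encodes an anion channel of the Golgi, had 8.73, 20.8 and 19.4 counts in MG and 107, 148 and 99.6 in BMDM (2.99 ± 0.41, limma adjusted p = 0.026). Fam149b had 14.3, 13.1 and 14.6 counts in MG and 109, 74.5 and 94.2 in BMDM (2.76 ± 0.34). Both Gxylt2 peaks, named after Ppp4r2, rose. Gxylt2 adds xylose to Notch, and its stronger peak had 7.93, 18.6 and 20.4 counts in MG and 83.3, 130 and 72.5 in BMDM (2.72 ± 0.44). The peak in Mvd, an enzyme of sterol synthesis, is named after Cyba, a subunit of the phagocyte NADPH oxidase. It had 21.4, 26.8 and 24.3 counts in MG and 143, 149 and 105 in BMDM (2.53 ± 0.32). In Wbp1l, which the table names Cyp17a1, MG 2 was the low library with 14.8 counts against 42.0 and 40.8 in MG 1 and MG 3, and the BMDM libraries had 165, 130 and 178 (2.50 ± 0.43). These 4 had a limma adjusted p of 0.026 as well. A set of 3 peaks named after Pisd-ps3 lies on the unplaced scaffold Un_JH584304 and also rose, by 2.16 to 2.35, but reads there can be shared with near-identical copies, so those values are uncertain.

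**Figure D2:**
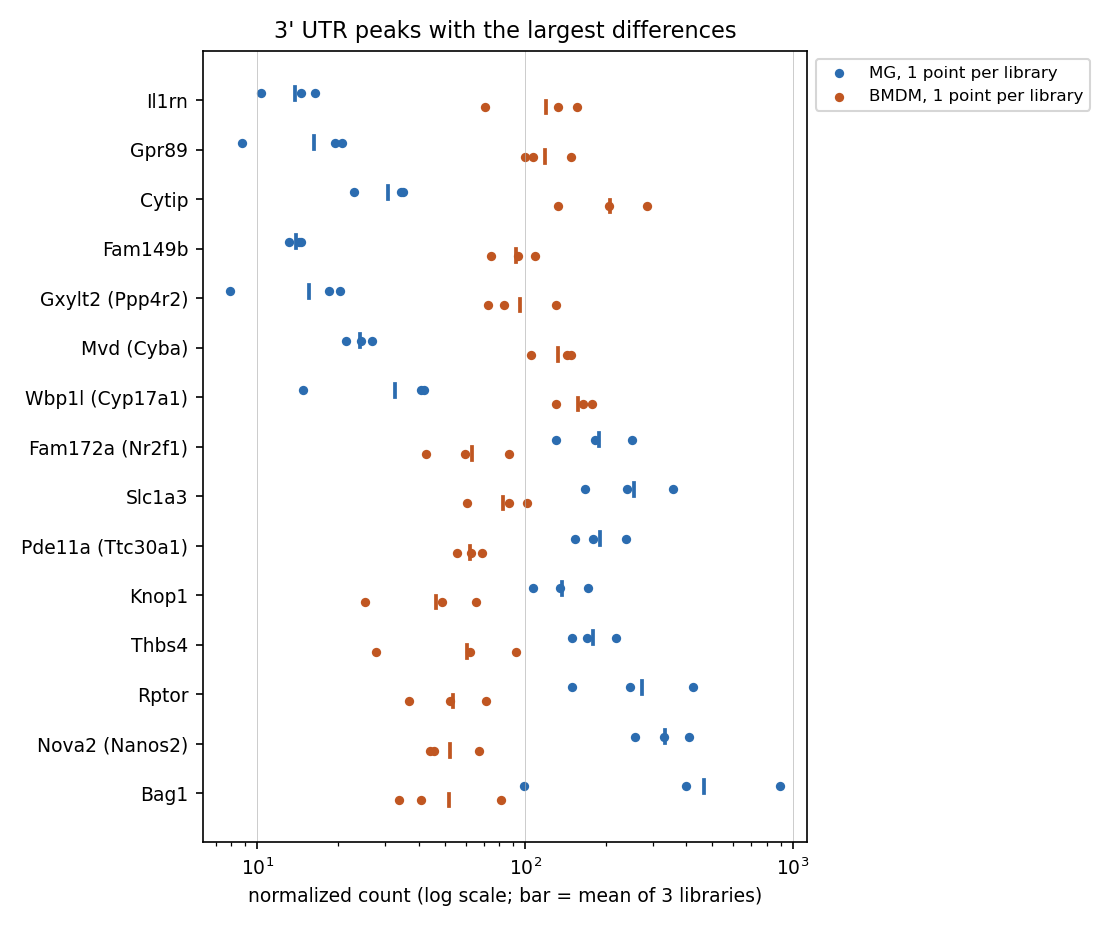
Normalized counts (log axis) of 7 of the 8 peaks with the largest increase and the 8 with the largest decrease in BMDM among called peaks above the median level. Points are single libraries, bars the means of 3, and the table's gene name stands in brackets where it differs. In all 15 peaks shown the BMDM and MG libraries do not overlap, which the choice of peaks required.

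Of the 26 peaks higher in MG, 2 lay in genes of the neural and glial list, Nova2 and Slc1a3, out of 13 peaks of that list tested. The peak in Nova2, a splicing factor of neurons, is named after Nanos2 (chr7:18957534-18958702) and had 256, 409 and 330 counts in MG and 45.6, 44.0 and 67.0 in BMDM. The groups were far apart, and the peak fell by 2.51 on the log2 scale (SE 0.32, limma adjusted p = 0.026). The peak near the end of Slc1a3, the glutamate transporter of astrocytes, had 356, 168 and 241 counts in MG and 101, 60.9 and 87.0 in BMDM, and fell by 1.44 (SE 0.36, limma adjusted p = 0.036). In App, the amyloid precursor gene, which is not on that list, the counts were close within each group, with 195, 166 and 162 in MG and 75.4, 74.5 and 68.8 in BMDM (limma adjusted p = 0.035). The peak in Rtn4rl1, a gene of the Nogo receptor family and a member of the microglial list, is named after Rpa1. It had 251, 195 and 159 counts in MG and 107, 73.2 and 52.5 in BMDM, and fell by 1.27 (SE 0.35, limma adjusted p = 0.044). The neural and glial marker sums were 12057 in MG 1, 18993 in MG 2 and 13767 in MG 3, each above the highest BMDM sum of 6384. The part of neural DNA in these peaks was not tested.

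The largest decrease among called peaks was at the end of Bag1, a co-chaperone of Hsc70, where the MG libraries differed widely. Its counts were 99.2 in MG 1, 894 in MG 2 and 399 in MG 3, against 33.7, 40.8 and 81.5 in BMDM, so that MG 1 lay just above BMDM 3. It fell by 2.61 (SE 0.69, limma adjusted p = 0.044). The call was lost with library totals, cyclic loess, robust moderation and the deposited variance-stabilized values, and the difference was -1.93 without MG 2 and -3.52 without MG 1. A peak in Rptor, the scaffold of the mTORC1 kinase complex, had the MG libraries in the same order over a narrower range, with 150, 423 and 246 counts against 71.4, 36.9 and 52.5 in BMDM. It lies 81234 bp from the end of the RefSeq gene and fell by 2.11 (SE 0.42, limma adjusted p = 0.027). MG 2 had at least 3 times the count of MG 1 in 17.8% of the 3′ UTR peaks tested and in 20.4% of all peaks tested. Among the others, the peak in Thbs4, which encodes a thrombospondin of the extracellular matrix, had 150, 219 and 170 counts in MG and 27.8, 62.2 and 92.4 in BMDM. The peak in Pde11a, a cyclic nucleotide phosphodiesterase, is named after Ttc30a1 and had 153, 239 and 179 in MG and 55.5, 62.8 and 68.8 in BMDM. Knop1 had 171, 107 and 135 counts in MG and 65.5, 25.3 and 48.9 in BMDM. The peak in Fam172a, named after the transcription factor Nr2f1, had 130, 251 and 183 in MG and 87.3, 42.7 and 59.8 in BMDM. These 4 fell, with differences of -1.55, -1.44, -1.49 and -1.43 and limma adjusted p-values of 0.047, 0.027, 0.042 and 0.039. Scaling by library totals ended the calls of Thbs4, Knop1 and Fam172a, as did cyclic loess for Thbs4 and library medians for Knop1.

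Several of the strongest 3′ UTR peaks lay in or beside genes that cells switch on early after stimulation, and MG and BMDM overlapped in the 6 strongest. The 6 with the highest mean included those of Egr1, Fosb, Med29 (named Zfp36), Rgs1 and Btg2. Egr1 and Fosb encode transcription factors of the early response, Zfp36 a protein that binds AU-rich 3′ UTRs and speeds the decay of cytokine messages, Btg2 an antiproliferative protein, and Rgs1 a brake on G protein signalling. Egr1 had 4656, 1630 and 2433 counts in MG and 2605, 1288 and 1199 in BMDM (limma adjusted p = 0.39). Fosb had 4748, 1424 and 1840 in MG and 3188, 1187 and 861 in BMDM (limma adjusted p = 0.54). Rgs1 had 1517, 501 and 720 in MG and 2759, 906 and 638 in BMDM (limma adjusted p = 0.63). Library 1 was the highest of its group in all 6 peaks in both MG and BMDM. Over the 50 strongest 3′ UTR peaks this held for 41 in MG, 33 in BMDM and 32 in both, and over all 1985 for 941, 574 and 397. Per kilobase of peak, Med29 had the highest mean of these 5 with 1355 normalized counts, then Egr1 with 908, Fosb with 827, Btg2 with 470 and Rgs1 with 463.

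**Figure D3:**
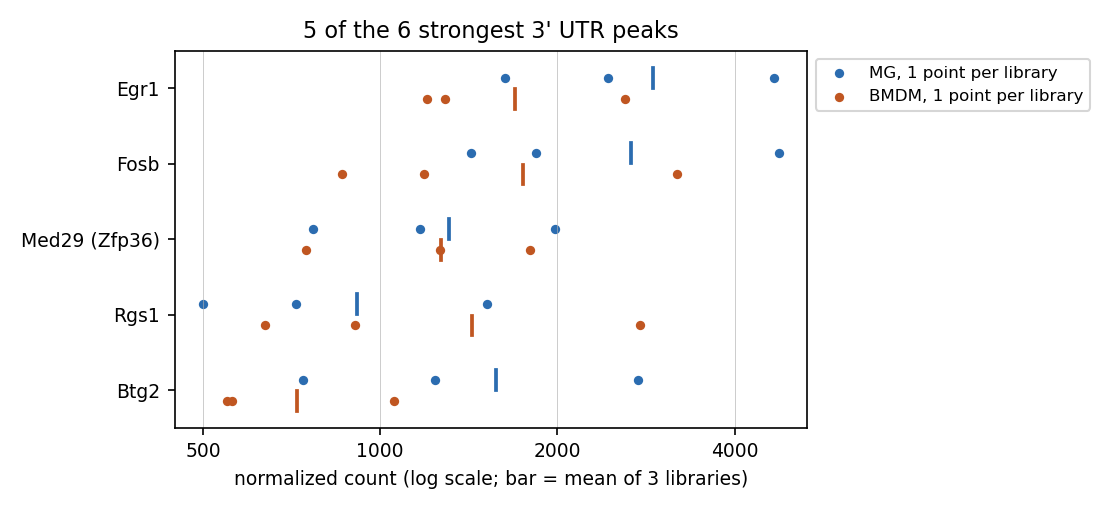
Normalized counts (log axis) of 5 of the 6 strongest 3′ UTR peaks, with 1 point per library and bars for the means of 3. Library 1 of each group is the rightmost point of its colour in all 5 peaks, and the MG and BMDM points overlap.

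Lists of genes with known roles were read through the spanning gene. Against them stand the shares over all peaks tested, 5.33% higher in BMDM and 1.54% lower, and a median difference of 0 by construction. Of the monocyte and macrophage list, 7 of 45 genes had a 3′ UTR peak, and 3 of the 7 peaks rose (Cd44 and Clec4n among them), with a median difference of 1.13 over the 7. Lyz2 lay in the other direction at -0.91, with 13.5, 124 and 68.0 counts in MG and 17.9, 24.0 and 29.0 in BMDM. Of the microglial list, 7 of 40 genes had a peak and 1 of 7 peaks fell (Rtn4rl1), with a median of -0.52. Over the 7 peaks that the table itself names after genes of this list, the median had the other sign, at 0.33. Its transcription factor Sall1 had 94.4, 42.6 and 51.5 counts in MG and 13.9, 16.8 and 36.2 in BMDM (limma adjusted p = 0.082). The peaks in Cx3cr1, the fractalkine receptor gene, and in Adgrg1, named Adgrg3, lay in the other direction at 0.71 and 1.05. Cx3cr1 had 78.5, 43.7 and 53.5 counts in MG and 83.3, 132 and 56.2 in BMDM (limma adjusted p = 0.41). Adgrg1 had 192, 72.7 and 113 in MG and 292, 247 and 147 in BMDM (limma adjusted p = 0.21). The groups overlapped in both of these peaks. Of the neural and glial list, 2 of 13 peaks tested fell (Nova2 and Slc1a3), with a median of -0.45. The brevican gene Bcan had 1293, 686 and 833 counts in MG and 444, 435 and 317 in BMDM, without overlap (limma adjusted p = 0.063). Another peak in Nova2 was at -1.04 (limma adjusted p = 0.29). A pair of peaks in Nfix lay in the other direction at 0.59 and 0.46 (limma adjusted p = 0.52 and 0.63). Those in Kif5a were near the median peak at 0.10 and -0.11 (limma adjusted p = 0.96 and 0.89).

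Of the immunosuppressive mediators, 1 of 7 peaks rose (Il1rn), with a median of 1.04. The genes of both ligands of the PD-1 checkpoint receptor had peaks just outside the threshold. Cd274, which encodes PD-L1, had 84.1, 91.8 and 88.4 counts in MG and 252, 277 and 136 in BMDM (1.39 ± 0.34, limma adjusted p = 0.054). Pdcd1lg2, which encodes PD-L2, had 80.1, 31.2 and 73.9 in MG and 149, 182 and 138 in BMDM (1.56 ± 0.40, limma adjusted p = 0.058). The groups did not overlap in either. Among cytokines, chemokines and their receptors 2 of 26 peaks tested rose (Il1rn and Il6ra), with a median of 0.35, and Lifr, named Egflam, spread from 19.0 to 377 counts within MG. The myeloid transcription factors had 22 peaks tested and none called by limma (4 higher in BMDM and 3 higher in MG at an unadjusted p under 0.05). The closest was Elf2, named Noct, with 7.93, 20.2 and 20.4 counts in MG and 117, 68.6 and 30.8 in BMDM (limma adjusted p = 0.057), and the peak in Bhlhe40 had 85.7, 249 and 167 in MG and 549, 624 and 293 in BMDM (limma adjusted p = 0.058).

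Genes of glucose and lactate handling had 6 peaks tested with none called by limma (2 higher in MG at an unadjusted p under 0.05) and a median of -0.73. Of these Ppp1r3b, a regulator of glycogen synthesis, had 201, 83.6 and 138 counts in MG and 69.4, 42.1 and 63.4 in BMDM (limma adjusted p = 0.088). The PDH kinase gene Pdk1 had 11.9, 86.4 and 34.0 in MG and 7.94, 7.77 and 18.1 in BMDM at its stronger peak, which overlap. The peak in Hk2, named Pole4, lay in the other direction at 0.67. It had 44.4, 23.5 and 31.1 counts in MG and 57.5, 38.9 and 45.3 in BMDM, which also overlap (limma adjusted p = 0.42). The list for PERK, the integrated stress response and hypoxia had 11 peaks with none called by limma and 0 at an unadjusted p under 0.05, and its strongest, in Atf3, spread from 405 to 1297 counts within MG. Among lysine acylation and histone methylation enzymes none of 7 peaks was called by limma (2 higher in BMDM at an unadjusted p under 0.05). Tet1, which oxidises methylcytosine in DNA and is an enzyme of neither kind, had 5.55, 7.65 and 2.92 counts in MG and 29.8, 30.4 and 18.1 in BMDM (limma adjusted p = 0.063). Of the RNA-binding proteins that act on 3′ UTRs themselves, 1 of 10 peaks tested rose. It lay in Tnrc6b, the scaffold of microRNA silencing, with 7.93, 10.9 and 9.72 counts in MG and 39.7, 40.8 and 36.2 in BMDM (2.07 ± 0.42, limma adjusted p = 0.033). Of the adhesion list, 3 of 11 peaks rose (Cd44 and Itgb3 among them), with a median of 0.40. The lists for dendritic cells (4 peaks), neutrophils (2), T, NK and B cells (8) and endothelial and mural cells (5) had 0, 1, 1 and 2 peaks called, all higher in BMDM. Read by the table's gene names, the monocyte list had 2 peaks called, the microglial list 0, and the neural list 1 in each direction. A peak named after Irf4, a factor of dendritic and B cells, lies in Exoc2 and had 3.97, 4.37 and 3.89 counts in MG and 19.8, 42.7 and 25.4 in BMDM (2.64 ± 0.60, limma adjusted p = 0.040).

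**Figure D4:**
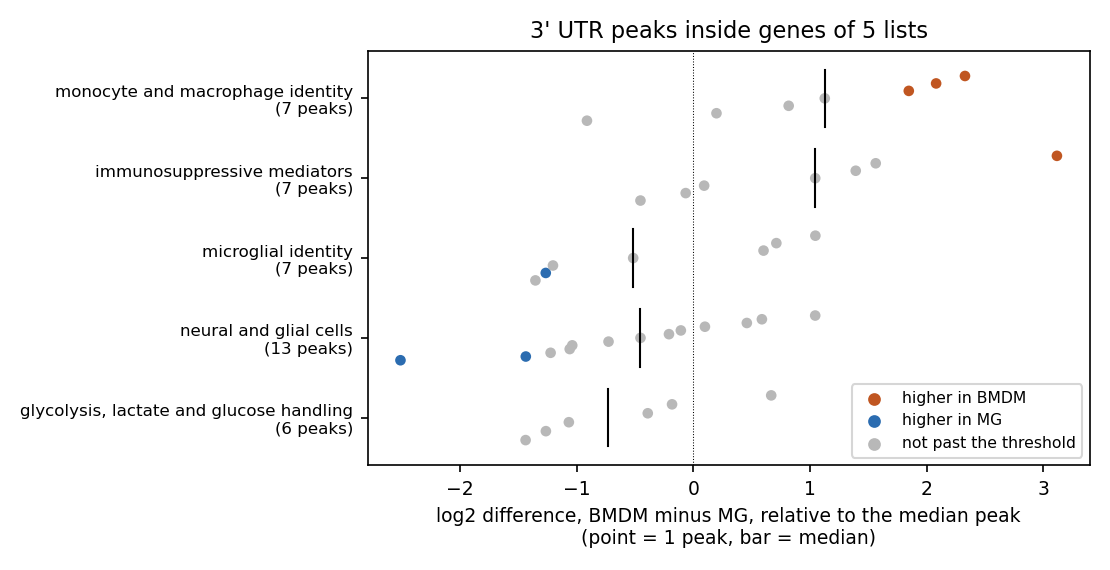
Log2 difference (BMDM minus MG, relative to the median peak) of the 3′ UTR peaks inside genes of 5 lists, with 1 point per peak and a bar at each list's median. The medians are 1.13 and 1.04 for the monocyte and immunosuppressive lists and -0.52, -0.45 and -0.73 for the microglial, neural and glucose lists, and 7 of the 40 points passed the threshold.

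Most gene names had only 1 such peak. Of the table's 1810 gene names for 3′ UTR peaks, 1590 had 1 peak, 191 had 2 and 29 had 3 or more. The name with the most, She, had 5, of which 2 lay in She itself, 2 in Il6ra and 1 in no single gene. The names P2rx4, Rassf4 and Slc36a3 had 4 each. Slc36a3, an amino acid transporter gene, held peaks that differed: one had 165, 84.2 and 164 counts in MG and 663, 375 and 339 in BMDM (1.86 ± 0.39, limma adjusted p = 0.034), while the next, with 95.2, 463 and 248 counts in MG and 179, 231 and 130 in BMDM, had overlapping groups. Over 175 neighbouring pairs in 156 genes, with a median gap of 2063 bp, the differences of the members of a pair had r = 0.43 (a description across pairs, which share libraries and often depth). At least 1 peak was called in 25 pairs, and both in 2, those of Gxylt2 and Bend4, where both rose.

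The 3′ UTR peaks were set beside the strongest promoter peak (within 1 kb of the start) of the gene that spans them. This was possible for 1497 peaks in 1342 genes. Across them the differences had r = 0.26 and rho = 0.27, as a description over peaks of the same libraries. Over the 1497 pairs the promoter was called higher in BMDM in 1.40% and higher in MG in 4.74%. Of the 71 peaks higher in BMDM with a promoter value, the promoter was also called higher in 4 (5.63%), and the median promoter difference was -0.09, against -0.21 over all 1497. Il1rn was one of the 4, with a promoter of 97.5 ± 33.5 counts in MG and 311 ± 89.7 in BMDM (SD, n = 3 each; 1.82, limma adjusted p = 0.034). Mmp8 and Gm8369 were among the others. At Cd44 the promoter had 363 ± 96.2 counts in MG and 524 ± 208 in BMDM, a difference of 0.60 that did not pass the threshold (limma adjusted p = 0.51). Of the 19 peaks higher in MG with a promoter value, 3 promoters fell too (15.8%), those of Slc1a3, Nova2 and Cand2, and the median promoter difference was -0.74. Slc1a3 had the lowest of them, with 303 ± 159 counts in MG and 49.8 ± 9.1 in BMDM (-2.32, limma adjusted p = 0.026). In 2 of the 19 the promoter lay on the other side. That of Pde11a was weak, with 4.27 ± 3.72 counts in MG and 26.8 ± 1.26 in BMDM (3.01, limma adjusted p = 0.077), and that of Rptor had 300 ± 43.1 counts in MG and 523 ± 206 in BMDM (0.85, limma adjusted p = 0.27). Neither passed the threshold, and the difference between the 3′ UTR peak and the promoter was not tested.

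**Figure D5:**
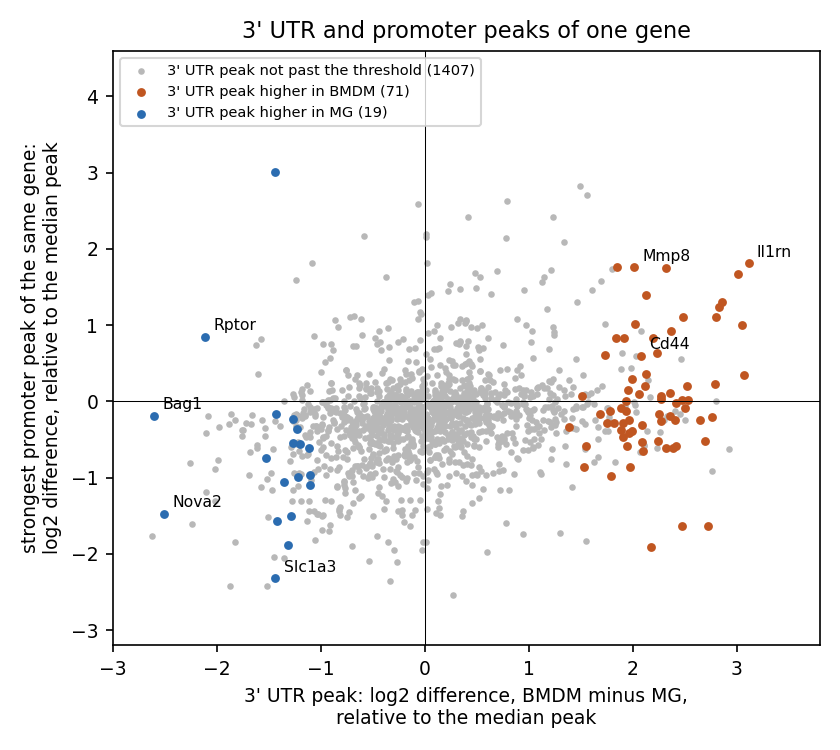
Log2 difference (BMDM minus MG, relative to the median peak) of 1497 3′ UTR peaks on the horizontal axis and of the strongest promoter peak of the spanning gene on the vertical axis. Orange points (71) are 3′ UTR peaks higher in BMDM, which spread above and below 0 on the promoter axis. Blue points (19) are those higher in MG, of which 17 lie below 0. The median promoter difference over all 1497 pairs also lies below 0, at -0.21.

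The authors also deposited a peak list for each library, and how many of the 2065 peaks it touched varied widely, as did the length of the list. The list of MG 2 (70739 peaks) overlapped 1502 of them by at least 1 base (72.7%), those of MG 1 and MG 3 1103 and 1095, those of BMDM 1 and BMDM 2 566 and 975, and that of BMDM 3 (17741 peaks, from the library with the fewest reads) 190 (9.20%). In all 6 lists 170 peaks were found, and 218 were in none. A peak was in all 3 MG lists and no BMDM list in 145 cases, and in all 3 BMDM lists and no MG list in 1 case. The test on counts, in contrast, called more peaks higher in BMDM (95) than in MG (26). Of the 26 peaks called higher in MG, 9 were among the 145 and 1 was in all 6 lists. Of the 95 called higher in BMDM, 1 was in all 3 BMDM lists and no MG list, and 7 were in all 6 lists. These counts were not taken over all peaks, and the part that list length has in them was not tested.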

How the data were processed

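The submitters' processing notes name build mm10 and, as tools of the authors, DESeq2 1.36.0, ChIPseeker 1.32.1, MACS2 2.1.1.20160309, Bowtie2 2.4.1 and cutadapt 1.8.1. Not given in the sources used here were settings, any Tn5 shift of reads and how duplicates were treated. The authors' deposited table holds log2 variance-stabilized values for each library, a log2 fold change, a mean signal (counts divided by size factors), and a p-value and adjusted p-value per peak. The deposited peak lists hold a fold enrichment (a ratio to the local background) and a −log10 q for each peak, which are the authors' own values. There are 8 more columns of single-sample values whose names fit none of the samples, and these stayed out.

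Inverting the transformation gave normalized counts, and their means matched the deposited ones to within a relative deviation of 2.37e-06. In every library, 99.999% of values or more then lay within 0.02 of a whole read once the size factors were applied. Of 92929 distinct peaks, 65 without annotation were left out, and repeated lines (7 among 3′ UTR peaks) were counted once. Counting error alone limits a library to 1.64 (MG 2) to 5.95 (BMDM 1) normalized counts at 3 reads, and PCR reads are not independent molecules. A count test was planned only for counts, so a limma fit (version 3.58.1, R 4.3.3) with a mean trend was made to log2(normalized count + 1) of peaks with a mean of at least 10, and this scale understates the change of low peaks. The script was tested on simulated data. Calls used a Benjamini-Hochberg adjusted p under 0.05 over all peaks tested. Alternatives changed the scaling, filter, pseudocount, moderation, input values and libraries, and added a replicate block and voom.

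The peaks and gene lists were chosen with earlier results of these data known. Named peaks are the 8 largest called changes in each direction above the median level and without overlap between the groups. Also named are the 6 strongest peaks, called peaks of listed genes, strong peaks of each list and the genes with most peaks. Named after their values were seen were Traf6, Ptafr, Cd300a, Klri2, Klre1, App, Pisd-ps3, Sall1, Elf2, Bhlhe40, Tet1, Nfix, Kif5a and another peak in Nova2. The choice of RefSeq spans to name the gene was also made after values were seen. Some peaks that this rule names are not reported here. No nucleotide sequence of the peaks was used here.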

Additional observations from a re-analysis of the deposited data

How the results depend on the processing

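The main counts were 95 peaks higher in BMDM and 26 higher in MG. Scaling by library totals, library medians, no filter, a pseudocount of 5, robust moderation and the deposited variance-stabilized values left both within 1.5 times. Cyclic loess gave 45 higher in MG, and a mean of at least 30 gave 63 higher in BMDM. With voom on the recovered reads 0 and 0 peaks were called (lowest adjusted p 0.0505), against 257 and 178 at an unadjusted p under 0.05, and the cause was not tested. Leaving out each library in turn gave 0 to 204 peaks higher in BMDM and 0 to 250 higher in MG. An alternative chosen after seeing the data kept MG 1 alone for MG and gave 147 and 50. There the lone library is assumed to vary like the BMDM libraries. The median difference of -0.01 ranged from -0.11 without BMDM 3 to 0.032 without BMDM 1, and moved by less than the spread between libraries (SD 0.083) in all alternatives except that without BMDM 3. Relative to the median peak, every called peak that an alternative tested kept its direction.

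Libraries of both groups share the numbers 1 to 3. Deviations from the group means correlated by 0.44 for number 1, -0.06 for number 2 and 0.36 for number 3, so the numbers were not taken to pair the libraries. A fit with a replicate block called 174 and 118 peaks. MG 1 correlated best with BMDM 1, but MG 2 did so with BMDM 3.

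Of the peak lists, requiring 0.5 of a peak's length to be covered left 345 of 566 peaks for BMDM 1 and 58 of 190 for BMDM 3, and those of the other libraries and a −log10 q of at least 5 stayed within 1.5 times. With 19 to 59 median reads per 3′ UTR peak in BMDM, small differences at weak peaks were not detectable.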

Other observations

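Among the called peaks inside 1 gene, the table's name was that of another gene in 40 of 105 cases. Some of these names would change how a peak is read. The peak in Nova2 carries the name of the germ cell gene Nanos2, and that in Mmp8 the name of Mmp27. Peaks named after Uts2, Anpep and Gpr171 were also higher in BMDM, and of these the first lay in the circadian gene Per3 (66.6, 94.6 and 59.3 counts in MG, 258, 398 and 170 in BMDM), the next in Ap3s2, and the last where genes overlap.

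Further peaks higher in BMDM lay in Itpr1, the calcium channel of the endoplasmic reticulum (61.9, 97.3 and 74.8 counts in MG, 389, 427 and 237 in BMDM; limma adjusted p = 0.026), in Slc37a3 (45.2, 108 and 68.0 against 284, 469 and 210; limma adjusted p = 0.028), and in Tgm2, a transglutaminase of macrophages (29.4, 15.9 and 21.4 against 206, 48.6 and 87.0; limma adjusted p = 0.041). Among those higher in MG, Slc4a3, an anion exchanger gene, had 226, 277 and 206 counts against 75.4, 101 and 74.3 (limma adjusted p = 0.028), and Zfp536, a zinc finger gene of neural development, had 348, 164 and 203 against 105, 67.3 and 77.9 (limma adjusted p = 0.043). These peaks were chosen after their values were seen.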
